A study of Mus musculus with 6 samples.

Results

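The receptors for immunoglobulin G (IgG) formed a set of 7 genes, Fcgr1, Fcgr3, Fcgr4, Fcer1g, Fcgr2b, Fcgrt and Trim21, taken by symbol from the 24411 genes listed for each library. All 7 passed the filter on low counts, which kept 11692 genes. They were measured by RNA sequencing in macrophages of C57BL/6 mice, an inbred laboratory strain, grown for 7 days from bone marrow monocytes with M-CSF, the growth factor that turns monocytes into macrophages. The first group, called LFA1-hi here, came from monocytes sorted as high for LFA1 and Itgam (3 libraries), and the group it was set against, called LFA1-lo, came from monocytes sorted as low for both (3 libraries). LFA1 is a leukocyte adhesion receptor, and Itgam encodes a chain of another one. No allele or drug differed between the groups, and the labels give neither the age nor the sex of the mice. Since the labels do not tie replicates to different mice or dishes, the spread behind each p-value is that among these 6 libraries and may be technical.

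Macrophages use these receptors to sense antibody-coated particles. The activating receptors Fcgr1 (FcγRI), Fcgr3 (FcγRIII) and Fcgr4 (FcγRIV) bind the Fc part of IgG outside the cell, and they signal through the FcRγ chain encoded by Fcer1g, whose activation motif (ITAM) is phosphorylated by Src family kinases and then bound by the kinase Syk. Fcgr2b (FcγRIIB) is the inhibitory receptor: its inhibitory motif (ITIM) recruits lipid and protein phosphatases that damp the same signal. Fcgrt encodes the heavy chain of FcRn, which pairs with β2-microglobulin, binds IgG in acidic endosomes and returns it to the surface instead of the lysosome. Trim21 encodes a ubiquitin ligase that binds antibody inside the cytosol.

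Fcgr2b, Fcgr4, Fcgr3 and Fcer1g lie in this order within 274 kilobases of chromosome 1 (GRCm38.p6, 170960558 to 171234349). Fcgr1 lies on chromosome 3 (96282909 to 96293969), and Fcgrt (45092993 to 45103822) and Trim21 (102557920 to 102565482) on chromosome 7. The coding parts of Fcgr2b and Fcgr3 are alike enough to bear on how their reads were counted. The longest run of bases shared by 1 transcript of each is therefore shown. It has 129 bases, crosses from exon 3 to exon 4 in each transcript, and lies wholly in coding sequence. With the intron, it spans chr1:170966674-170968081 in Fcgr2b and chr1:171054167-171057792 in Fcgr3, both on the minus strand of GRCm38, and capitals mark the 27 bases in exon 4.
Fcgr2b and Fcgr3: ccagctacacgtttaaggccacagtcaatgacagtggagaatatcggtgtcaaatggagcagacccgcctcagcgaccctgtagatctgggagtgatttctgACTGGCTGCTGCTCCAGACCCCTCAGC
For each of the 7 genes 1 transcript was compared, although the files list 2 for Fcgr2b and 2 for Trim21. Of all stretches of 50 bases in these transcripts, 166 of 1413 in Fcgr2b (11.7%) and 166 of 1298 in Fcgr3 (12.8%) occurred in the other gene. None in Fcgr1, Fcgr4, Fcer1g or Fcgrt occurred in another gene, and 8 of 2744 in Trim21 did. In the deposited files Fcgr2b and Fcgr3 had counts that were not whole in each library, whereas the other 5 genes had whole counts. Levels of Fcgr2b and Fcgr3 are thus uncertain to the extent that shared reads could be assigned to either.

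The 250 bases before a transcript start annotated by RefSeq are shown for the 3 activating receptors that bind IgG and for Fcgrt, since these genes include both that passed the test below. Capitals mark GAGGAA, a core of the site bound by PU.1, the macrophage transcription factor encoded by Spi1, which reads TTCCTC where it lies on the opposite strand. For Fcgr3 this start lies inside the gene, whose annotated span on the minus strand runs from 171065915 down to 171051169, and for the other 3 genes the window ends at the gene's outer edge. The sequences are RefSeq's (GRCm38.p6), from chr3:96293970-96294219 (minus strand), chr1:171059404-171059653 (minus strand), chr1:171018676-171018925 (plus strand) and chr7:45103823-45104072 (minus strand).
Fcgr1: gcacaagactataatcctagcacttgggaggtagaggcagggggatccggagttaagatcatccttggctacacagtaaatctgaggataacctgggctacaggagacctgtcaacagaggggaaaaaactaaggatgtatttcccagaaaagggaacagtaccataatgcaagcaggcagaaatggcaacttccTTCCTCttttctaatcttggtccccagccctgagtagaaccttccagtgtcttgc
Fcgr3: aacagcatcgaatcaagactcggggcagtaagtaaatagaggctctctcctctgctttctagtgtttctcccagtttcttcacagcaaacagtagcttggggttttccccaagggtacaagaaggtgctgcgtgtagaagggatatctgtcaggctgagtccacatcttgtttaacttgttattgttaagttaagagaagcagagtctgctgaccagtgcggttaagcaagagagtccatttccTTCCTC
Fcgr4: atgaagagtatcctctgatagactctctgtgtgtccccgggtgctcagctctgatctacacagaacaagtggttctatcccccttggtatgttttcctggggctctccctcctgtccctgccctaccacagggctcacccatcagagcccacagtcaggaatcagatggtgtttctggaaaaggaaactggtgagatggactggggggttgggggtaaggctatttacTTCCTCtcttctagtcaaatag
Fcgrt: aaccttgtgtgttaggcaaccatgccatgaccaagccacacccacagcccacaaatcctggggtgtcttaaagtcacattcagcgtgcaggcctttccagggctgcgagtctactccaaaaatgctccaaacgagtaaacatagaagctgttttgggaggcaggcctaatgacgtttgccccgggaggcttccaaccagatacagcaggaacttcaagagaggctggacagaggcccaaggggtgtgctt
GAGGAA began 55, 6 and 22 bases before the start of Fcgr1, Fcgr3 and Fcgr4, in each case on the opposite strand. On either strand it was found in 23.3% of 32851 promoter windows of this length. It was not found in this window of Fcgrt, Fcer1g, Fcgr2b or Trim21, although in Trim21 it began 11 bases after the start (28.3% of windows held it with 50 bases after the start included). GAAA followed after any 2 bases by GAAA, a core of sites bound by interferon regulatory factors (2.98% of windows), began 73 bases before the start of Fcgr4, and TTCNNNGAA, a core of sites bound by STAT factors (7.02% of windows), 109 bases before that of Fcgr1. In Trim21 the GAAA pair began 14 and again 20 bases after the start, with the 2 matches overlapping each other. In windows extended past the start in the same way, 3.44% held this pair. These matches describe the letters only.

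Summed expected counts ran from 15191262 to 17614509 a library, and the members had between 374 counts (Trim21 in LFA1-hi replicate 3) and 13391 counts (Fcgr3 in LFA1-lo replicate 3). Correlations of log CPM between libraries of a group were 0.984 to 0.988 in LFA1-hi and 0.969 to 0.979 in LFA1-lo. In several of these genes LFA1-lo replicate 2 lay away from the rest of its group. All 8 macrophage markers passed the filter. They summed to 23451 to 26714 TPM in LFA1-hi and 27262 to 39232 TPM in LFA1-lo. Of these, 5 fell (Adgre1, Csf1r, Cd68, Lyz2 and Cd14) and 1 rose, where 15.6% of all tested genes were lower and 16.1% higher. TPM is a transcript abundance corrected for gene length and library size, which allows levels of different genes to be compared. Summed levels were 4.10 to 5.38 TPM in LFA1-hi and 1.90 to 6.86 TPM in LFA1-lo for 5 B cell markers. They were at most 0.320 TPM in LFA1-hi and 2.38 to 3.19 TPM in LFA1-lo for 7 T and NK cell markers, and 0.580 to 0.860 TPM in LFA1-hi and 0.620 to 3.65 TPM in LFA1-lo for 6 mast cell or basophil markers. For 5 dendritic cell markers they were 0.0700 to 0.400 TPM in LFA1-hi and 0.120 to 0.760 TPM in LFA1-lo, and for 4 progenitor markers 3.46 to 4.01 TPM in LFA1-hi and 3.36 to 3.78 TPM in LFA1-lo. Among them, the B cell marker Pax5, the T and NK cell markers Cd3e and Ncr1 and the mast cell markers Cpa3, Fcer1a and Ms4a2 were at 0 TPM in the 6 libraries. At low levels, 2 markers of these lists were lower in LFA1-hi. Cd4 averaged 0.0833 TPM in LFA1-hi and 2.49 TPM in LFA1-lo. Kit, a mast cell and progenitor marker, averaged 0.0467 TPM in LFA1-hi and 0.373 TPM in LFA1-lo. Markers this near 0 in LFA1-hi could hardly pass the filter except through LFA1-lo. A fall was thus almost the only call open to them, and it is given as a description only. The 7 neutrophil markers in the files summed to 21.8 to 32.7 TPM in LFA1-hi and 46.2 to 154 TPM in LFA1-lo. Of the 3 tested, 2 fell, S100a9 among them (log2 fold change −4.08), where 15.6% of all tested genes were lower. S100a8 was tested too and did not pass (−0.86). It had 27.6, 17.5 and 26.8 TPM in LFA1-hi and 22.0, 41.8 and 66.7 TPM in LFA1-lo, so the groups overlapped. The other that fell was the granule protein gene Ltf, with 0.187 TPM in LFA1-hi and 2.86 TPM in LFA1-lo on average. Like Cd4 and Kit, Ltf was near 0 in LFA1-hi, so its fall too is a description only. Of granule markers that did not pass the filter, Camp averaged 0.377 TPM in LFA1-hi and 2.79 TPM in LFA1-lo, Mpo 0.273 and 0.490 TPM, and Elane 0.323 and 0.403 TPM in these groups. The part of these markers' cells in the results below was not tested.

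Of the 7 genes, Fcgrt fell and Fcgr4 rose in LFA1-hi macrophages, while Fcgr1, Fcgr3, Fcer1g, Fcgr2b and Trim21 did not pass the test. Over all tested genes 31.7% passed, 16.1% higher and 15.6% lower in LFA1-hi, so 2 of 7 is near that background. With scaling by library totals only, 2294 were higher and 1471 lower, against 1883 and 1822 with TMM scaling. The test was edgeR's quasi-likelihood test with Benjamini-Hochberg adjustment over all 11692 genes and a threshold of 0.05. Their median log2 fold change was −0.24, against a median of 0.00 for all tested genes. In bulk RNA, fewer cells that express a gene and less RNA per cell cannot be told apart.

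**Figure D1:**
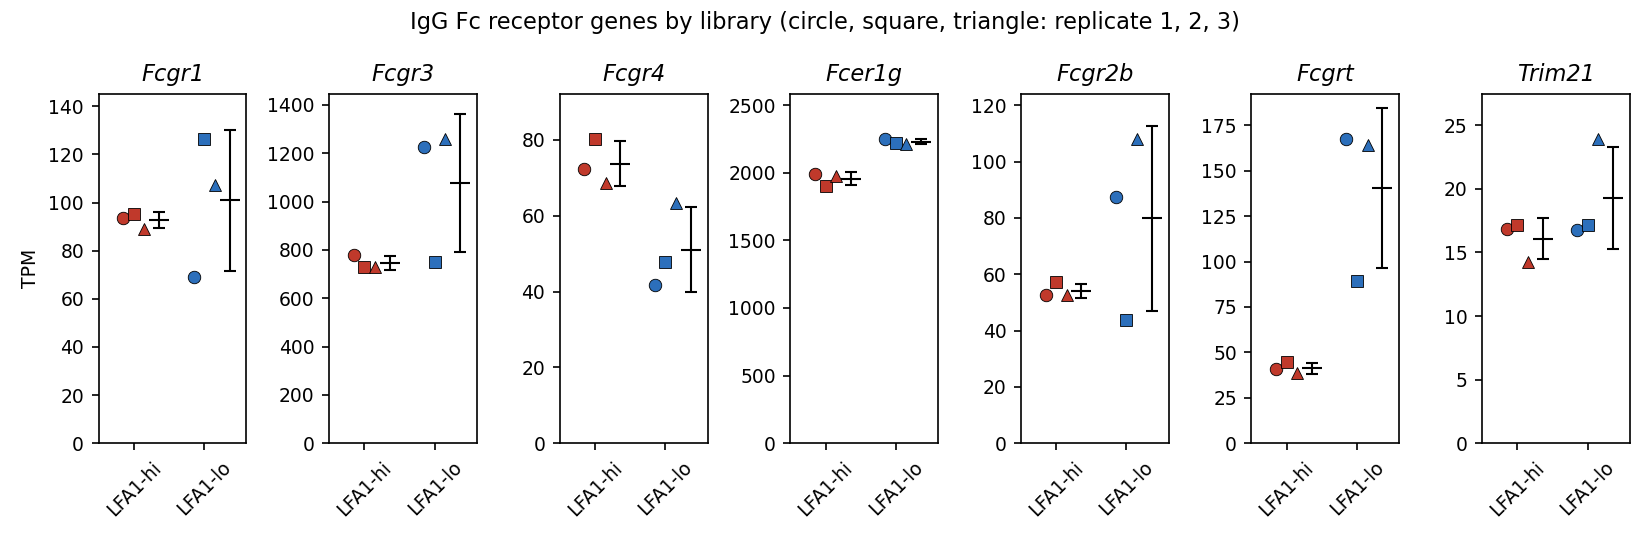
Level of each IgG Fc receptor gene in TPM (y axis, from 0, scaled for each gene) in the 3 LFA1-hi libraries (red) and the 3 LFA1-lo libraries (blue), with symbols for replicate numbers and bars for the mean ± SD. Fcgr4 was higher and Fcer1g and Fcgrt were lower in each LFA1-hi library than in any LFA1-lo library. The groups did not overlap for 47.2% of all tested genes. LFA1-lo replicate 2 (blue square) lay near the LFA1-hi libraries for Fcgr3 and Fcgr2b.

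The activating receptors that bind IgG were dominated by Fcgr3 in both groups. Fcgr3, which binds immune complexes at low affinity, stood at 781, 731 and 729 TPM in LFA1-hi macrophages, against 1225, 749 and 1259 TPM in LFA1-lo replicates 1, 2 and 3. LFA1-lo replicate 2 lay inside the range of the LFA1-hi libraries, so the groups overlapped. The log2 fold change was −0.50 (SE 0.17, 95% interval −0.89 to −0.12, edgeR adjusted p = 0.0525), just outside the threshold. Leaving out LFA1-lo replicate 2 brought it past the threshold (−0.69, adjusted p = 7.91e-07), as did analysis with DESeq2 (adjusted p = 0.0106), with a filter at 10 CPM (adjusted p = 0.0469) and with a replicate block (adjusted p = 0.0296), against a highest adjusted p of 0.159 over the alternatives. Without that library 4 of the 7 genes passed, 3 of them lower in LFA1-hi, where 42.3% of all tested genes passed and 20.5% were lower.

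Fcgr4, which in mice binds IgG2a and IgG2b, rose in LFA1-hi macrophages. It had 72.35, 80.2 and 68.7 TPM in the LFA1-hi libraries, against 41.8, 47.7 and 63.5 TPM in the LFA1-lo libraries. The groups did not overlap, which held for 47.2% of all tested genes, although the highest LFA1-lo library lay close to the lowest LFA1-hi library. Its level averaged 73.7 ± 5.87 TPM in LFA1-hi and 51.0 ± 11.2 TPM in LFA1-lo (SD, n = 3 each), a 1.46-fold difference. The log2 fold change was 0.55 (SE 0.15, 95% interval 0.21 to 0.89, edgeR adjusted p = 0.0215). The call was lost without LFA1-hi replicate 1, 2 or 3 (adjusted p = 0.0742, 0.0875 and 0.0531) and without LFA1-lo replicate 1 (adjusted p = 0.0605), with log2 fold changes of 0.41 to 0.59 in these fits and a range of adjusted p over alternatives of 0.00219 to 0.0875.

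Fcgr1, the high-affinity receptor, which can hold single IgG molecules, did not pass. It stood at 93.8, 95.4 and 89.0 TPM in LFA1-hi, against 68.9, 126 and 107 TPM in LFA1-lo. The LFA1-hi libraries lay together in the middle of the wider LFA1-lo range. Its log2 fold change was −0.11 (SE 0.21, 95% interval −0.58 to 0.37, edgeR adjusted p = 0.731) and turned to 0.11 without LFA1-lo replicate 2, which held the highest level.

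Fcer1g, the signalling chain these receptors share, was the most abundant of the genes. It had 1989, 1903 and 1976 TPM in LFA1-hi and 2248, 2219 and 2216 TPM in LFA1-lo libraries. Each LFA1-hi library was lower than any LFA1-lo library, and the spread was small in both groups (46.1 and 17.9 TPM, SD). Groups without overlap were found for 47.2% of all tested genes. The difference did not pass (log2 fold change −0.18, SE 0.07, 95% interval −0.34 to −0.01, edgeR adjusted p = 0.0906, with 0.0519 to 0.317 over the alternatives). The level of Fcer1g was 2.14 ± 0.0748 times the summed TPM of Fcgr1, Fcgr3 and Fcgr4 in LFA1-hi and 1.88 ± 0.46 times in LFA1-lo (SD, n = 3 each).

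Fcgr2b, the inhibitory receptor, was variable among LFA1-lo libraries and did not pass. Its levels were 52.7, 57.1 and 52.6 TPM in LFA1-hi, against 87.6, 43.8 and 108 TPM in LFA1-lo replicates 1, 2 and 3. LFA1-lo replicate 2 was the lowest of the 6 libraries and the other LFA1-lo libraries were the highest. The log2 fold change was −0.53 (SE 0.28, 95% interval −1.19 to 0.12, edgeR adjusted p = 0.191). Without LFA1-lo replicate 2 Fcgr2b passed as lower in LFA1-hi (−0.82, adjusted p = 1.39e-05), while in the other alternatives it did not pass, with adjusted p up to 0.482. Leaving out LFA1-lo replicate 3, the library with the highest level, brought the log2 fold change to −0.26 (adjusted p = 0.482).

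Fcgrt, the recycling receptor, fell the most of these genes. Its levels were 40.9, 44.6 and 38.5 TPM in LFA1-hi libraries, against 167, 89.5 and 164 TPM in LFA1-lo libraries. The groups did not overlap, as for 47.2% of all tested genes, and LFA1-lo replicate 2, the lowest of its group, was still above each LFA1-hi library. On average Fcgrt stood at 41.3 ± 3.10 TPM in LFA1-hi and 140.0 ± 44.1 TPM in LFA1-lo (SD, n = 3 each), a log2 fold change of −1.74 (SE 0.21, 95% interval −2.23 to −1.25, edgeR adjusted p = 0.000789), or 3.34-fold lower. The absolute change was larger than that of 96.7% of tested genes, and the call held in each of 17 alternatives (−1.97 to −1.61, adjusted p at most 0.00586).

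Trim21, the cytosolic receptor, was the least abundant. It had 16.9, 17.1 and 14.3 TPM in LFA1-hi and 16.8, 17.1 and 23.9 TPM in LFA1-lo libraries. LFA1-lo replicate 3 stood above the rest, and the groups overlapped. Its log2 fold change was −0.24 (SE 0.16, 95% interval −0.59 to 0.11, edgeR adjusted p = 0.272), and −0.06 without that library.

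**Figure D2:**
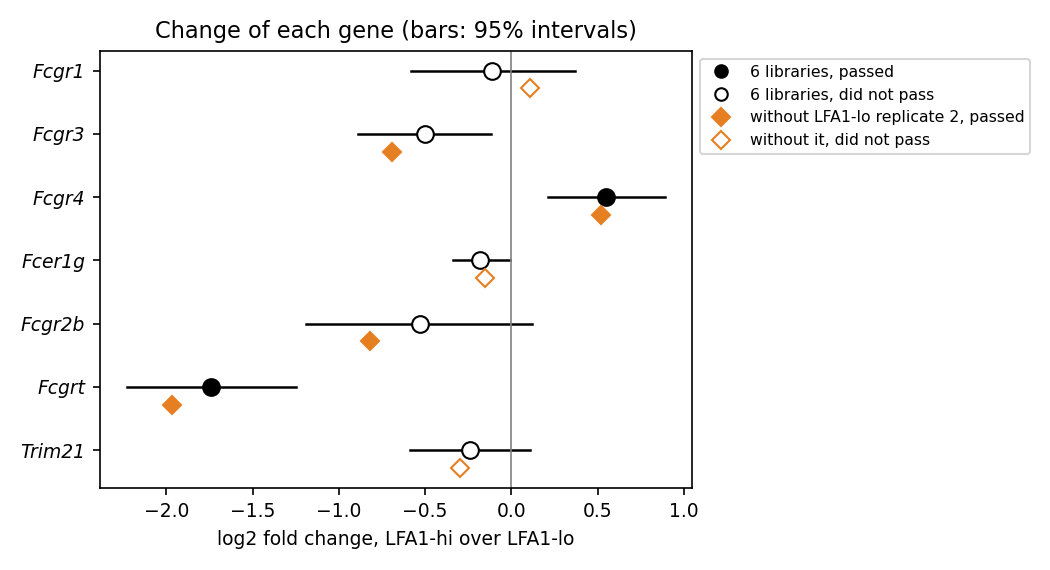
Log2 fold change of each gene, LFA1-hi over LFA1-lo (x axis), with 95% intervals from the fit on 6 libraries (circles, filled where the gene passed) and the value without LFA1-lo replicate 2 (diamonds, filled where the gene passed). With 6 libraries Fcgr4 (0.55) and Fcgrt (−1.74) passed, and without LFA1-lo replicate 2 Fcgr3 (−0.69) and Fcgr2b (−0.82) passed as well.

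Fcer1g and Fcgr3 led the order of levels in both groups. From the highest, mean TPM ran in the order Fcer1g, Fcgr3, Fcgr1, Fcgr4, Fcgr2b, Fcgrt and Trim21 in LFA1-hi macrophages, and the values of neighbours in this order did not overlap. In LFA1-lo the order was Fcer1g, Fcgr3, Fcgrt, Fcgr1, Fcgr2b, Fcgr4 and Trim21. There the ranges of Fcgrt and Fcgr1, of Fcgr1 and Fcgr2b, and of Fcgr2b and Fcgr4 overlapped. Fcgrt thus ranked 6 of 7 in LFA1-hi and 3 of 7 in LFA1-lo. Over the 6 libraries Fcer1g and Fcgr3 lay above 99.5% and 98.6% of tested genes in mean TPM, and Trim21 above 48.6%.

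The make-up of the 4 surface receptors that bind IgG was compared next. Fcgr3 took 77.2% ± 1.18 of their summed TPM in LFA1-hi and 81.8% ± 4.31 in LFA1-lo macrophages (SD, n = 3 each). Fcgr4 took 7.24%, 8.32% and 7.32% in LFA1-hi, against 2.94%, 4.94% and 4.13% in LFA1-lo. Fcgr2b took 5.60% ± 0.325 in LFA1-hi and 5.90% ± 1.26 in LFA1-lo. The summed activating receptors exceeded Fcgr2b by 18.0, 15.9 and 16.9 times in LFA1-hi and by 15.2, 21.0 and 13.2 times in LFA1-lo. The LFA1-hi values lay within the range of the LFA1-lo values, so the summed balance of activating to inhibitory transcripts did not separate the groups.

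Ratios within a library were tested for 6 pairs of genes with an exact permutation test over libraries, two-sided, where 3 against 3 cannot go below p = 0.1 and hence no pair could pass. The ratio of Fcgr4 to Fcgr2b was 1.37, 1.40 and 1.31 in LFA1-hi, against 0.477, 1.09 and 0.588 in LFA1-lo. Each LFA1-hi library was higher, by 1.01 on the log2 scale on average (exact p = 0.1, 0.3 adjusted over the 6 pairs). The ratio of Fcgr3 to Fcgr2b, neighbouring genes with shared sequence, was 14.8, 12.8 and 13.9 in LFA1-hi, against 14.0, 17.1 and 11.7 in LFA1-lo (log2 difference −0.03, exact p = 0.9). The difference changed sign to 0.11 when LFA1-lo replicate 2 was left out and to 0.03 when LFA1-hi replicate 2 was, and it was −0.16 when LFA1-lo replicate 3 was. The groups overlapped, and the transcripts of these genes share sequence.

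For Fcgr1 to Fcgr2b the ratio was 1.78, 1.67 and 1.69 in LFA1-hi, against 0.787, 2.88 and 0.994 in LFA1-lo. LFA1-lo replicate 2 lay above the LFA1-hi libraries and the other LFA1-lo libraries below them (log2 difference 0.39, exact p = 0.5). The difference was 0.95 without that library, and 0.02 and 0.19 when LFA1-lo replicates 1 and 3 were left out. For Fcer1g to Fcgr2b the log2 difference was 0.28 (exact p = 0.6), and it came to 0.17, 0.66 and 0.00 when LFA1-lo replicates 1, 2 and 3 were left out in turn. The ratio of Fcgrt to Fcgr2b was 0.775, 0.782 and 0.732 in LFA1-hi, against 1.91, 2.04 and 1.52 in LFA1-lo, without overlap (log2 difference −1.25, exact p = 0.1, 0.3 adjusted). In LFA1-lo macrophages Fcgrt thus exceeded Fcgr2b in each library, and in LFA1-hi macrophages Fcgr2b exceeded Fcgrt in each.

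**Figure D3:**
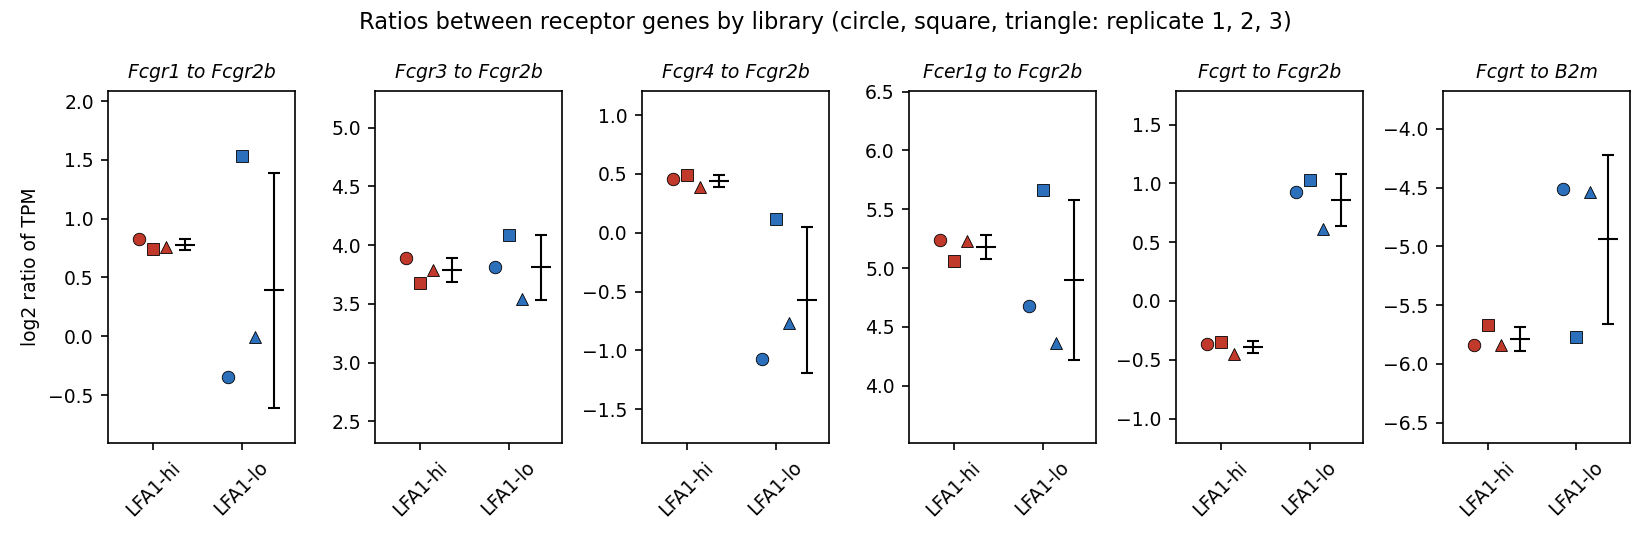
Log2 ratio of TPM between pairs of genes (y axis, equal span in each panel) in LFA1-hi (red) and LFA1-lo (blue) libraries, with bars for the mean ± SD. Fcgr4 to Fcgr2b was higher and Fcgrt to Fcgr2b lower in each LFA1-hi library, whereas the other 4 pairs overlapped.

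B2m, which encodes the light chain of FcRn and also of class I molecules, fell along with Fcgrt. It stood at 2276 ± 66.0 TPM in LFA1-hi and 4177 ± 620.0 TPM in LFA1-lo (SD, n = 3 each). Its log2 fold change was −0.87 (SE 0.12, edgeR adjusted p = 0.000789). There was 51.0 to 57.4 times as much B2m as Fcgrt in LFA1-hi, and 22.8, 54.6 and 23.2 times in LFA1-lo replicates 1, 2 and 3. The ratio of Fcgrt to B2m overlapped between the groups, with LFA1-lo replicate 2 inside the LFA1-hi range (log2 difference −0.84, exact p = 0.2, and −1.26 without that library). Of 10 tested genes of the partner and recycling route of Fcgrt, 5 fell and 1 rose (median log2 fold change −0.34), where 15.6% of all tested genes were lower and 16.1% higher. Those that fell were B2m, Rab4a (−1.01) and Rab11b (−0.34), GTPases of recycling endosomes, Rab11fip5, an effector of Rab11 (−0.98, adjusted p = 3.54e-05), and Rab7, a GTPase of late endosomes (−0.33). Falling genes numbered 2, 2 and 3 without LFA1-hi replicates 1, 2 and 3, where 19.7%, 19.2% and 20.4% of all tested genes passed. Of rising genes there were none without LFA1-hi replicate 1 or 2 or LFA1-lo replicate 3. Leaving out LFA1-lo replicate 2 gave 2, where 42.3% of all tested genes passed.

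Of 20 tested genes that carry the activating (ITAM) signal, 7 fell and 1 rose (median −0.22), where 15.6% of all tested genes were lower and 16.1% higher. Without LFA1-lo replicate 2, 9 fell and 2 rose, where 42.3% of all tested genes passed. Syk, the kinase that binds the ITAM, named after its values were seen, had 109, 103 and 109 TPM in LFA1-hi, against 161, 164 and 150.4 TPM in LFA1-lo (log2 fold change −0.54, edgeR adjusted p = 0.00103). Blnk, an adaptor (−0.75), Prkcd, a protein kinase C (−0.66), and Pik3cd, a catalytic subunit of phosphoinositide 3-kinase (−0.57), fell too. Lcp2, the adaptor SLP-76, rose to 83.5 ± 8.37 TPM in LFA1-hi, against 50.2 ± 10.7 TPM in LFA1-lo (0.76, adjusted p = 0.00395). The most abundant genes of the list, the adaptors Lat2 (−0.24, adjusted p = 0.143) and Fyb (−0.13, adjusted p = 0.224), did not pass. Nor did Lyn, a Src family kinase that phosphorylates the ITAM, named after its values were seen (0.06, 95% interval −0.11 to 0.23, adjusted p = 0.599).

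On the inhibitory side 4 of 11 tested genes fell and none rose (median −0.14). Over all tested genes 15.6% were lower and 16.1% higher, with 31.7% called in either direction. Without LFA1-lo replicate 2, 5 fell and 1 rose, where 42.3% of all tested genes passed. Rasa1, a Ras GTPase-activating protein, fell to 40.0 ± 3.86 TPM in LFA1-hi, against 106 ± 25.9 TPM in LFA1-lo (−1.39, SE 0.18, edgeR adjusted p = 0.001). The adaptor Dok1 (−0.50) and the phosphatases Inppl1, or SHIP-2 (−0.46), and Ptpn6, or SHP-1 (−0.42), also fell, and the abundant Dok2 did not pass (−0.20, adjusted p = 0.348). Inpp5d, or SHIP-1, the lipid phosphatase that Fcgr2b recruits, named after its values were seen, had 127, 124 and 114 TPM in LFA1-hi and 140, 97.7 and 147 TPM in LFA1-lo. It did not pass (−0.05, 95% interval −0.34 to 0.25, adjusted p = 0.814).

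Among 15 tested genes of the actin machinery of phagocytosis 3 fell and 1 rose (median 0.01), near the 31.7% called over all tested genes. Myo10, an unconventional myosin of pseudopods, stood at 25.3, 19.7 and 27.5 TPM in LFA1-hi, against 113, 129 and 109.7 TPM in LFA1-lo (−2.26, SE 0.15, edgeR adjusted p = 3.01e-05). Dock2 (−0.50), an activator of Rac, and Was (−0.23), an activator of actin branching, fell, and Elmo1 (0.30), a partner of Dock proteins, rose. The abundant subunits of the Arp2/3 complex Arpc2 (0.14, adjusted p = 0.223) and Arpc3 (−0.07, adjusted p = 0.608) did not pass. Falling genes numbered 1 without LFA1-hi replicate 1 or 2. Rising genes numbered 0 without any of the LFA1-hi libraries and 3 without LFA1-lo replicate 2. Over all tested genes 19.7%, 19.2% and 20.4% passed without LFA1-hi replicates 1, 2 and 3, and 42.3% without LFA1-lo replicate 2.

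Of other receptors that pair with Fcer1g, 6 of 12 passed the filter and 2 of these fell (median −0.46), where 15.6% of all tested genes were lower. Clec4n, or Dectin-2, a receptor for fungal mannans, had 22.8, 14.4 and 18.0 TPM in LFA1-hi, against 134, 89.1 and 112 TPM in LFA1-lo (−2.60, SE 0.19, edgeR adjusted p = 3.7e-05). Clec4e, or Mincle, fell as well (−0.81, adjusted p = 0.00729), and the abundant Clec4d did not pass (−0.21, adjusted p = 0.129). Falling genes numbered 4 without LFA1-lo replicate 2, where 20.5% of all tested genes were lower. Tyrobp, or DAP12, an ITAM adaptor like Fcer1g, fell to 2475 ± 95.5 TPM in LFA1-hi, against 3294 ± 235 TPM in LFA1-lo (−0.41, SE 0.08, adjusted p = 0.00587), while Hcst, or DAP10, did not pass (−0.82, adjusted p = 0.0515). Of these adaptors 1 of 2 tested fell, where 15.6% of all tested genes were lower. Without LFA1-lo replicate 2, 2 fell, where 20.5% of all tested genes were lower. Among other Fc receptor and Fc receptor-like genes 2 of 12 passed the filter, Fcrls (−0.98, adjusted p = 0.0499) and Fcrl1 (−0.87, adjusted p = 0.0362). Both fell, where 15.6% of all tested genes were lower. Fcrls had 74.7, 76.5 and 63.4 TPM in LFA1-hi, against 145, 77.5 and 210 TPM in LFA1-lo replicates 1, 2 and 3. With a replicate block, or without LFA1-hi replicate 2 or 3 or LFA1-lo replicate 3, neither Fcrls nor Fcrl1 passed. Of these, 1 passed without LFA1-hi replicate 1 or LFA1-lo replicate 1. The receptor genes for other antibody classes Fcer1a, Fcamr, Fcmr and Pigr were at 0 TPM in the 6 libraries.

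For Trim21, 9 genes that act with it or sense what it exposes were tested, of which 2 rose and 1 fell (median 0.10), near the 31.7% called over all tested genes. Mb21d1, the DNA sensor cGAS, rose to 11.5 ± 0.601 TPM in LFA1-hi, against 5.77 ± 0.701 TPM in LFA1-lo (1.02, SE 0.14, edgeR adjusted p = 0.000752), and Ube2w, an enzyme that primes ubiquitin chains on Trim21, rose by 0.50. Ddx58, the RNA sensor RIG-I, fell (−0.94, adjusted p = 0.00784). The abundant Vcp (0.10, adjusted p = 0.312) and Ube2v1 (−0.04, adjusted p = 0.719) did not pass. Without LFA1-lo replicate 2, 4 rose and none fell, where 42.3% of all tested genes passed. Of rising genes there was 1 without LFA1-hi replicate 2 or 3 or LFA1-lo replicate 1. In these fits 19.2%, 20.4% and 23.0% of all tested genes passed.

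Of 14 tested genes for factors known to act upstream of Fc receptor genes, 10 fell and none rose (median −0.36), where 15.6% of all tested genes were lower. Irf1, an interferon regulatory factor, had 30.1, 29.1 and 26.7 TPM in LFA1-hi, against 70.5, 74.9 and 58.4 TPM in LFA1-lo (−1.23, SE 0.12, edgeR adjusted p = 0.000116). Ifngr1, a chain of the receptor for interferon gamma, which induces Fcgr1, fell by 1.10 on the log2 scale (adjusted p = 0.000242). Stat2 (−0.62) and Spi1 (−0.46, adjusted p = 0.00447) fell as well. The count was 6, 5 and 4 without LFA1-hi replicates 1, 2 and 3, where 19.7%, 19.2% and 20.4% of all tested genes passed. Without LFA1-lo replicate 2 it was 13, where 42.3% of all tested genes passed in either direction and 20.5% were lower.

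**Figure D4:**
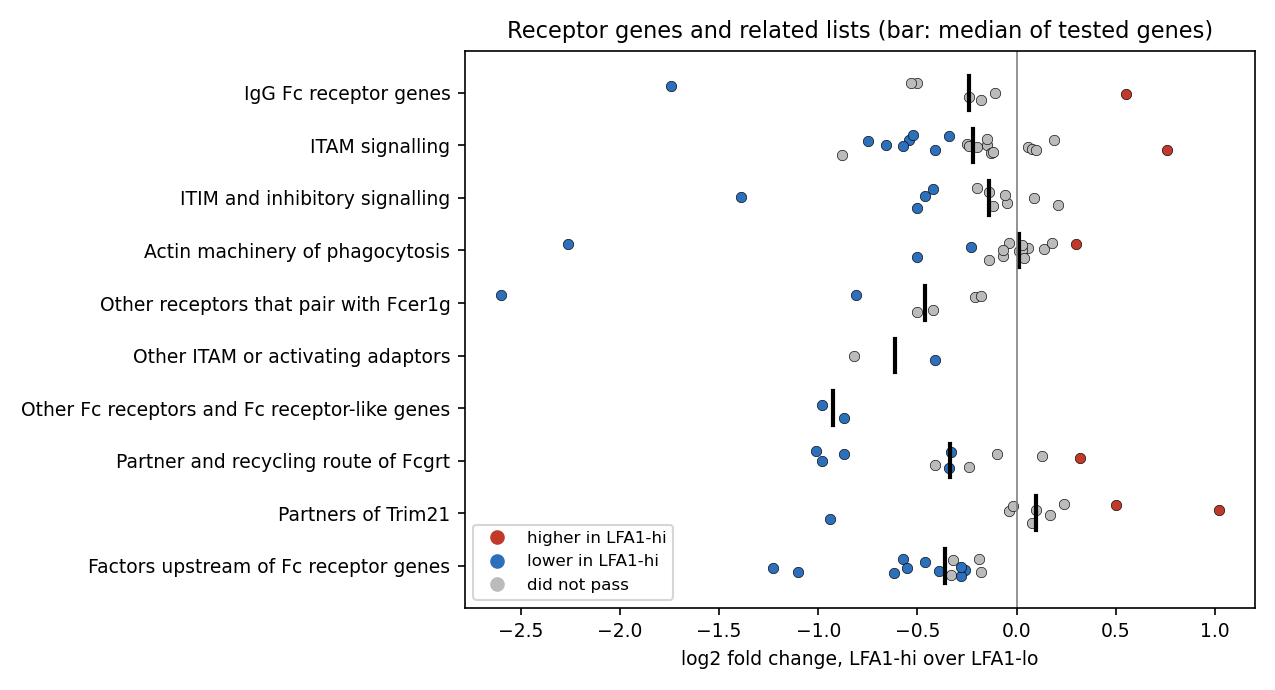
Log2 fold change, LFA1-hi over LFA1-lo (x axis), of the IgG Fc receptor genes and of the tested genes of each related list (rows), in red where higher and in blue where lower in LFA1-hi at an adjusted p under 0.05 and in grey otherwise, with black bars for medians. The largest falls shown are Clec4n (−2.60), Myo10 (−2.26) and Fcgrt (−1.74), and the upstream factors are the row with the most falls (10 of 14).

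The genes whose log2 CPM ran most like each receptor over the 6 libraries were taken from 8324 other genes with a mean of at least 10 CPM, as a description, since the libraries share the difference between groups. Fcgr1 ran most like Zbp1, a sensor of unusual nucleic acid structure (r = 0.994), and Oas1a, an oligoadenylate synthetase (r = 0.992). Only 13 genes (0.156%) reached r of 0.95 with Fcgr1. Oas1a had 76.25, 80.0 and 72.5 TPM in LFA1-hi and 63.3, 99.2 and 85.3 TPM in LFA1-lo. Its order of libraries within LFA1-lo was that of Fcgr1, which follows from its choice by correlation. For Fcgrt, 461 genes (5.54%) reached that r, led by Pstpip2 (0.999) and Arl4c (0.997), which both fell (−0.76 and −0.77). The leading genes were Tsc22d3 (0.999) and Tmem263 (0.994) for Fcgr2b, Prpf6 (0.998) and Dapk1 (0.995) for Fcgr3, Trappc1 (0.991) and Lin9 (0.988) for Fcgr4, Dctn2 (0.995) and Rfx1 (0.994) for Fcer1g, and Hps4 (0.985) and Zfp384 (0.971) for Trim21.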

How the data were processed

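Per the labels' protocols, macrophage RNA was taken on day 7 of culture, depleted of ribosomal RNA and made into libraries read on a NextSeq2000. Per the submitters' processing notes, bcl2fastq, Trim Galore and RSEM were used with GRCm38. The sources used here give no versions, aligner or strand setting. The authors' files hold, per the file headers, RSEM expected counts per RefSeq gene, not normalized, and deposited TPM values, which divide counts by effective length and scale each library to 1 common total.

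Expected counts were rounded, filtered with filterByExpr (11692 of 24411 genes), scaled by TMM (factors 0.956 to 1.034) and tested by quasi-likelihood (robust) with edgeR 4.0.16 (R 4.3.3), LFA1-hi minus LFA1-lo, Benjamini-Hochberg adjusted over all tested genes. A run on simulated data gave every gene the same spread and had no outlying library. It thus does not cover the wider spread of several members in LFA1-lo. Ratios of TPM were tested by exact permutation (scipy 1.17.1). Named genes are the 7 members, up to 4 called genes with the largest change and the 2 most abundant genes of each list, and the 2 genes most like each member; a few of these and of the markers are not reported here. Members and lists were chosen with earlier results of these data known. Alternatives used other scalings and filters, DESeq2 1.42.0, limma 3.58.1, TPM, each library left out and a replicate block. Transcripts within 100 bases of the deposited length came from GENCODE M21 (GRCm38) through RefSeq accessions; all 7 members matched there and in RefSeq.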

Additional observations from a re-analysis of the deposited data

How the results depend on the processing

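Over 17 alternatives Fcgrt kept its direction and call in each, Fcer1g, Trim21 and Fcgr1 stayed outside the threshold in each, and Fcgr4 kept its direction but lost its call in 5, one of them the stricter threshold of 0.01. Fcgr1 reversed to 0.11 without LFA1-lo replicate 2, within a range of −0.33 to 0.11 with 1 library left out. With 1 library left out, 1 to 4 of the 7 genes passed and 2288 to 5032 genes in all, and at an adjusted p under 0.01 there were 1 and 2024, for which a stricter threshold gives fewer by construction. For the other counts the cause was not tested. The share of calls that were higher moved from 50.8% to 60.9% with scaling by library totals only (2294 higher, 1471 lower). The log2 ratio of Fcgr3 to Fcgr2b changed sign around 0, from −0.16 to 0.11 with 1 library left out. No other ratio changed sign, although that of Fcer1g to Fcgr2b came to 0.00 without LFA1-lo replicate 3. Same-numbered libraries did not deviate together (correlations 0.037, 0.018 and −0.072), so numbers were not taken to pair samples. A replicate block gave 3253 called genes and 3 called members, Fcgr3 being the additional call (−0.47, adjusted p = 0.0296). Counts of list members stayed within 1.5-fold in 78 of 108 cases with a library left out and in 17 of 18 with the block. Both figures include counts of 0 that stayed at 0, as for the rising genes of several lists. The lowest count behind any member's value was 374.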

Other observations

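Fcgr2b has 2 annotated transcripts in the files, and the deposited mean transcript length, weighted by isoform, follows their mix. It was 1413, 1410.4 and 1416 bases in LFA1-hi and 1417, 1406 and 1411 bases in LFA1-lo libraries, so the LFA1-hi values lay within the LFA1-lo range.

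Among protein-coding neighbours of the chromosome 1 receptor genes, 8 that are no members were tested and 1 passed, where 31.7% of all tested genes did. Pcp4l1, between Fcgr3 and Fcer1g and named after its values were seen, fell in LFA1-hi macrophages (log2 fold change −1.65, edgeR adjusted p = 5.92e-05). The other 7 did not pass, among them Sdhc, a subunit of respiratory complex II (−0.09, adjusted p = 0.41).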
